A study of Homo sapiens with 6 samples.

Results

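The genes described here are 40 members of the response that the transcription factor ATF4 directs when amino acids run short or the endoplasmic reticulum is stressed. They were chosen by their gene symbols, and all 40 were found among the 16907 gene symbols of the files. When a cell lacks amino acids, the kinase GCN2 phosphorylates the translation factor eIF2. Protein synthesis then slows in general, while the ATF4 mRNA is translated better. ATF4 pairs with C/EBP proteins on a short DNA element and switches on genes that import amino acids, make serine, glycine, asparagine and proline, and charge tRNAs, together with regulators that limit or end the response.

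RNA was sequenced from LX-2 cells, a human hepatic stellate cell line. Stellate cells store vitamin A in the healthy liver and deposit collagen as myofibroblasts once activated. The cells were transfected at 20 nM for 72 h either with a control small interfering RNA (siControl) or with one against OGT (siOGT), the enzyme that puts O-linked N-acetylglucosamine (O-GlcNAc) on proteins. Each group had 3 libraries, and libraries with the same replicate number were treated as a pair. All libraries came from this single cell line, and ATF4 protein and translation were not measured here.

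The libraries held between 25996770 and 27966801 expected counts, which are counts in which a read matching several genes is divided between them. OGT mRNA was lower in all 3 pairs and stood at 22.0% of control (log2 fold change -2.18, SE 0.073, adjusted p = 2.71e-12, edgeR). Of 8 stellate and myofibroblast markers, 5 were called lower and 1 higher, by the rule given below. Over all genes tested 12.7% were called lower and 12.7% higher, and 16.2% and 16.3% of those with a mean of at least 10 CPM. The summed level of these 8 markers, scaled by library totals alone, ran from 6731 to 8017 CPM in siControl and from 6135 to 7071 CPM in siOGT. Of 9 markers of other liver cells, 8 were in the files. ALB and EPCAM had too few reads to be tested, APOA1, KRT19, PECAM1, CDH5 and PTPRC had means of at most 1.75 CPM, and CD68 was called higher (log2 fold change 0.46, SE 0.086, adjusted p = 0.000947), its mean being 137 CPM in siControl and 188 CPM in siOGT. Of the length of CD68, 81.6% is shared with another annotated gene on the same strand. The part of these markers in the results below was not tested. In bulk libraries a lower level in every cell and fewer cells that express a gene cannot be told apart.

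The ATF4 response genes did not move as a block. With siOGT, 12 of the 40 were called higher and 10 lower, and the 2 directions fell largely to genes of different roles. Of 12 stress regulators, mostly transcription factors and feedback regulators, 8 rose, led by PPP1R15A, DDIT3 and SESN2. In contrast 7 of 11 enzymes of amino acid and one-carbon synthesis fell, led by PHGDH, ALDH1L2 and PSAT1. The transporter subunit SLC3A2 nearly doubled while 3 other transporters fell. A gene was called where the adjusted p-value of the edgeR quasi-likelihood test, with the replicate pair as a block, was at most 0.05. In the same fit 12.7% of the 14853 genes tested were called higher and 12.7% lower. Both shares of members, 30.0% higher and 25.0% lower, lay above this background. The members and role groups were chosen with earlier results of these data known. These shares and the split by role are therefore a description, not a test. Members are mostly well expressed, and 34 of them had a mean of at least 10 CPM (counts scaled to a common library total). Among genes at that level 16.3% were called higher and 16.2% lower, against 11 and 10 of the 34 members. Because the directions opposed each other, the median log2 fold change of the 40 members was only 0.031, beside 0.0068 over all genes tested.

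These calls depended on the pairing of the libraries. Without the replicate block edgeR called 1 member, SESN2, higher and 0 lower, although 11 and 7 had an unadjusted p below 0.05, and over all genes 0.478% were then called higher and 0.397% lower. With DESeq2 and the block, 11 members were called higher and 9 lower, against 7.52% and 8.74% of all genes. As a description that uses no model, the 3 siOGT libraries lay wholly above the 3 siControl libraries in 10 members and wholly below them in 7, which compares with 12.1% and 11.8% of all genes. All 3 pairs moved up in 17 members, all 3 moved down in 14, and the pairs differed in sign in 9. The share of all genes with like signs was not counted, so these sign counts have no background beside them.

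**Figure D1:**
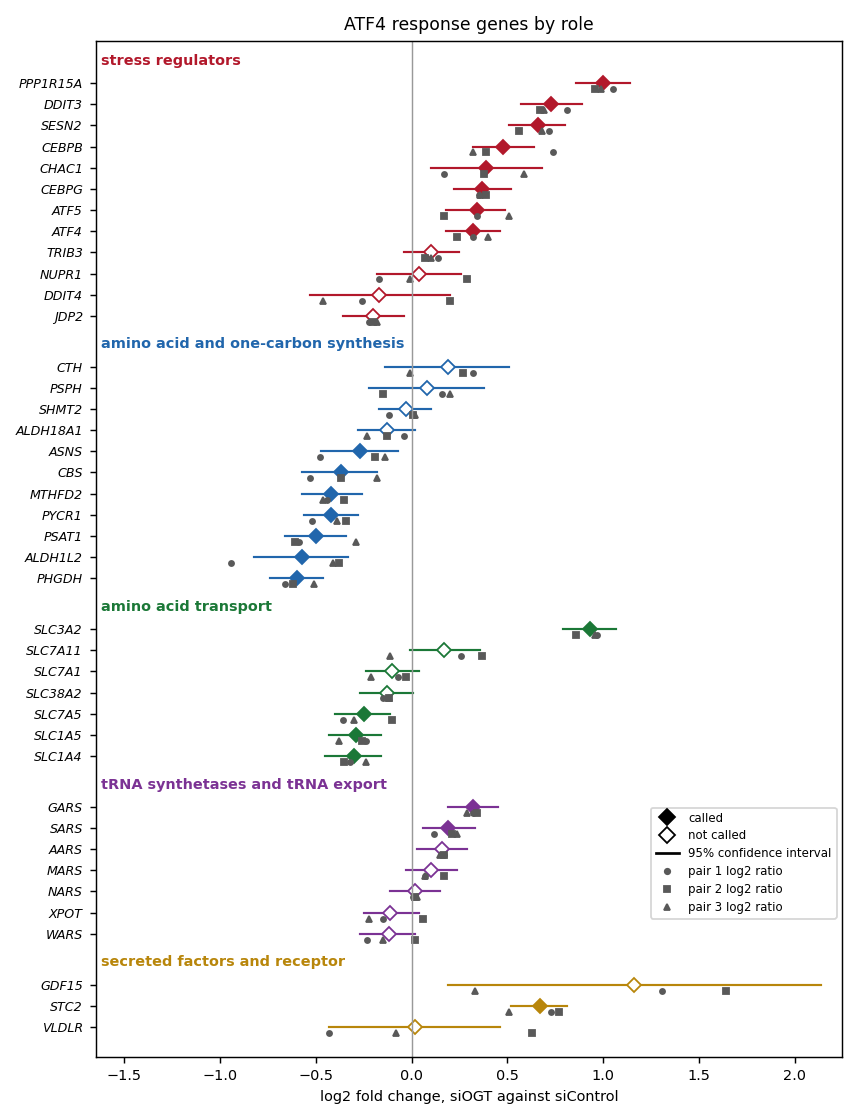
Log2 fold change of siOGT against siControl for each of the 40 genes, grouped by role. Diamonds are the edgeR estimates (filled where called), bars are 95% confidence intervals, and small symbols are the log2 ratios of the 3 replicate pairs. Of the 12 stress regulators 8 lie to the right of 0 with filled diamonds, and of the 11 synthesis genes 7 lie to the left with filled diamonds.

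ATF4 recognises the C/EBP-ATF response element, whose core reads TGATGNAA, with TGATGCAA as the best known form. Promoter windows from RefSeq (GRCh38.p14, 250 bases before to 50 after the gene start) were matched for 34 members and searched on both strands, the reverse complements being TTNCATCA and TTGCATCA. The element was found in 7 of the 34 windows (20.6%), against 3.62% of all 35116 windows and 1.80% of the 11456 windows of genes tested here. The stricter form was found in 4 of 34 (11.8%), against 0.866% and 0.463%. The members were listed as genes of the ATF4 response, so these shares describe the list and are not a test. Besides NARS, whose stretch is not shown, 2 members carry the strict form and were not called, AARS and MARS. The stretches below are shown because they hold the element in these 2 members and in the 3 that were called, CHAC1, ASNS and SLC3A2. They read 5′ to 3′ along the strand of the gene, and capitals mark the match.
CHAC1 (chr15:40953236-40953295, + strand): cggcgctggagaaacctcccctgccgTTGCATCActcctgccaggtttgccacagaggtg
ASNS (chr7:97872443-97872502, - strand): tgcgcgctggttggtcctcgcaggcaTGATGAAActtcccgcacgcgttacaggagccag
SLC3A2 (chr11:62881725-62881748, + strand): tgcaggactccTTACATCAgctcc
AARS (chr16:70289660-70289719, - strand): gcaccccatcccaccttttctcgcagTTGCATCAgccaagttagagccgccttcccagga
MARS (chr12:57488038-57488097, + strand): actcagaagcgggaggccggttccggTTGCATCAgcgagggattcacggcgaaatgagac

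The match began 209 bases before the start in CHAC1, 187 before it in AARS, 68 before it in ASNS and 4 before it in MARS, and 38 bases after it in SLC3A2. SLC7A1 and NARS, the remaining members with a match, carried it 8 and 15 bases after the start. The change under siOGT did not go one way among these genes. Of the 7 with the element, 2 were called higher, 1 lower and 4 not called (median log2 fold change 0.10), and of the 27 without it 10 were higher, 7 lower and 10 not called (median 0.016). A match of letters is not a measured binding site, and a match outside these windows was not looked for. Distances are counted from the RefSeq starts, which for CHAC1, ASNS, SLC3A2, AARS, MARS and NARS lie inside the GENCODE 44 genes.

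The stress regulators were the role group with the most genes called higher. Of its 12 members, 8 were called higher and 0 lower by edgeR (1 of them had an unadjusted p below 0.05 in the lower direction, and DESeq2 with the block also called 0 lower), with a median log2 fold change of 0.35. ATF4 itself, the factor that drives the response, stood at 272, 255 and 278 CPM in siControl libraries 1 to 3 and at 341, 300 and 368 CPM in the siOGT libraries. Every siOGT library lay above every siControl library, and the log2 fold change was 0.32 (SE 0.066, adjusted p = 0.00171). ATF4 lies at chr22:39519695-39522683 (GENCODE 44, hg38), and its counts were divided between matching sequences in all 6 libraries. On the scale of CPM per kb of transcript, ATF4 had the highest mean level in siControl (189), followed by PPP1R15A (173), and with siOGT their order turned, with 347 for PPP1R15A and 237 for ATF4.

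PPP1R15A encodes GADD34, the phosphatase subunit that removes the phosphate from eIF2 and so lets translation resume (chr19:48872212-48876059). It had 451, 285 and 483 CPM in siControl and 931, 554 and 961 CPM in siOGT. The lowest siOGT library, from pair 2, was still above the highest siControl library, and the 3 pairs gave nearly the same log2 ratio (1.05, 0.96 and 0.99), although the groups' own spread was wide (406 ± 107 against 815 ± 227 CPM, mean ± SD, n = 3). The log2 fold change was 1.0 (SE 0.066, adjusted p = 3.31e-08).

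DDIT3 encodes CHOP, a C/EBP-family factor that is known to act with ATF4 and to favour cell death under lasting stress. Its level went from 21.1, 18.0 and 29.1 CPM to 37.1, 28.6 and 47.0 CPM. The groups overlapped, since siControl library 3 was above siOGT library 2, but each pair rose (log2 fold change 0.73, SE 0.076, adjusted p = 4.74e-06). SESN2, a leucine sensor that restrains mTORC1, went from 39.95, 35.9 and 41.4 CPM to 65.8, 53.1 and 66.5 CPM. Its groups did not overlap, and with a log2 fold change of 0.66 (SE 0.069, adjusted p = 5.24e-06) it was the 1 member that edgeR also called without the block.

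The C/EBP partners of ATF4 rose as well. CEBPB had 123, 122 and 165 CPM in siControl and 205, 160 and 205 CPM in siOGT, with 1 siOGT library below the highest siControl library (log2 fold change 0.48, SE 0.077, adjusted p = 2.20e-04). CEBPG, which forms dimers with ATF4, rose by 0.37 (adjusted p = 0.00129) and ATF5, a relative of ATF4 that is regulated through upstream reading frames in the same way, by 0.34 (adjusted p = 0.00268), and in both every siOGT library was above every siControl library. CHAC1, which breaks down glutathione, was a borderline call. Its log2 fold change was 0.39 (SE 0.14, adjusted p = 0.0466) at 4.40 to 5.804 CPM in siControl and 5.76 to 8.77 CPM in siOGT, and the call was lost with DESeq2 (adjusted p = 0.225) and when any 1 pair was left out (0.0625 to 0.284).

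The other regulators were not called, and they include well known ATF4 targets. TRIB3, the pseudokinase that feeds back on ATF4, had a log2 fold change of 0.10 (95% confidence interval -0.04 to 0.25) at 40.3 ± 2.91 CPM in siControl and 43.4 ± 3.80 CPM in siOGT. That interval ends below the lower bounds of DDIT3 (0.57) and SESN2 (0.51). DDIT4, an inhibitor of mTORC1, was at -0.17 (-0.53 to 0.20), NUPR1, a stress-induced chromatin protein, at 0.04 (-0.18 to 0.26), and JDP2, a bZIP repressor, at -0.20 (-0.36 to -0.04, adjusted p = 0.064), with all 3 pairs of JDP2 below 0.

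**Figure D2:**
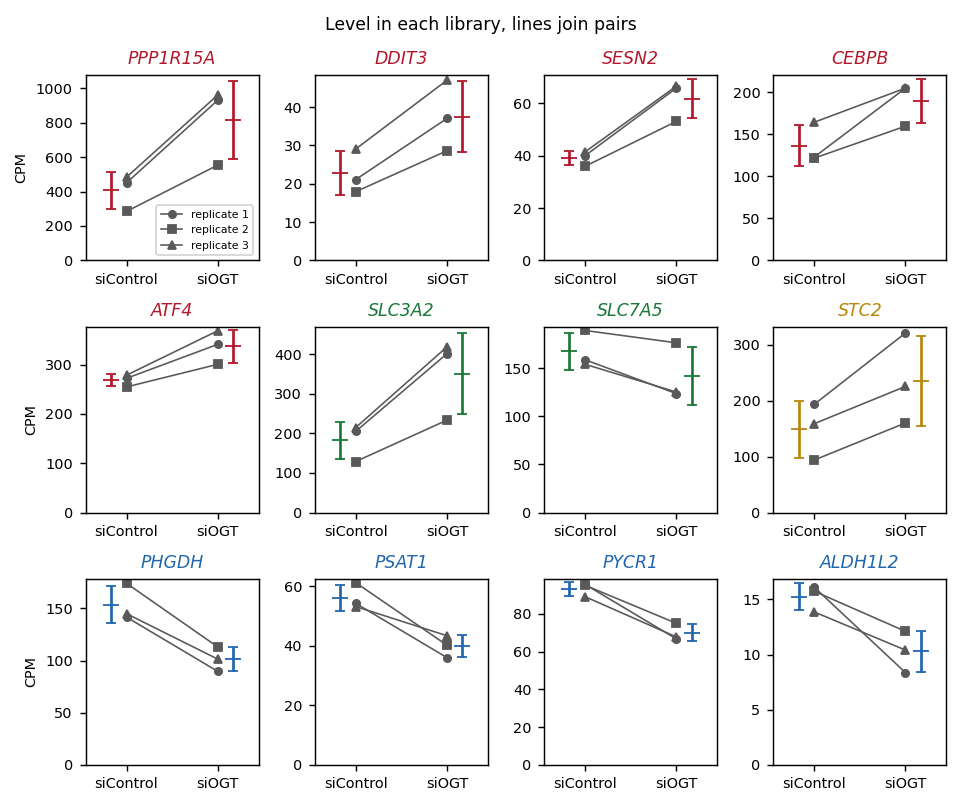
TMM-scaled CPM in each library for 12 of the genes, with lines joining the libraries of a replicate pair. Crosses with bars give the mean ± SD of the 3 libraries per group, each axis starts at 0, and in every panel the 3 lines run in the same direction, up for the stress regulators, SLC3A2 and STC2 and down for SLC7A5 and the 4 synthesis genes.

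The pair number showed in the levels of the regulators. Replicate 2 was the lowest siControl library in 8 of the 12 stress regulators and the lowest siOGT library in 9 of them, and replicate 3 was the highest in 10 and 9. The same held for the tRNA group in siControl, where replicate 2 was lowest in 7 of 7. In the synthesis genes replicate 2 was lowest in only 2 of 11 in siControl and in 3 of 11 in siOGT. Replicate 1 was the highest there in 6 of 11 in siControl and the lowest in 6 of 11 in siOGT. What set the pairs apart was not tested.

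Enzymes that make amino acids and one-carbon units moved in the other direction. Of 11 members 7 were called lower and 0 higher by edgeR (0 had an unadjusted p below 0.05 in the higher direction, and DESeq2 also called 0 higher), and the median log2 fold change was -0.37. The serine pathway from glycolysis led this group. PHGDH, its first enzyme (chr1:119648411-119744218), had 142, 174 and 145 CPM in siControl and 89.6, 113 and 101 CPM in siOGT. No siOGT library reached the lowest siControl library, and the level stood at 66.0% of control (log2 fold change -0.60, SE 0.065, adjusted p = 6.35e-06). PSAT1, the aminotransferase that follows it, went from 54.2, 61.2 and 53.2 CPM to 36.0, 40.2 and 43.4 CPM, again with no overlap (-0.50, SE 0.076, adjusted p = 1.62e-04). PSPH, the phosphatase of the last step, had a log2 fold change of 0.08 (-0.22 to 0.38) at 4.68 to 6.27 CPM over all libraries, and its value is uncertain because its counts were split between matching sequences in all 6 libraries.

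The mitochondrial one-carbon enzymes that use serine also fell in part. ALDH1L2, which oxidises formyl-tetrahydrofolate in mitochondria, was at 16.1, 15.8 and 13.9 CPM in siControl and at 8.37, 12.1 and 10.4 CPM in siOGT. Its groups did not overlap, and pair 1 changed most (log2 ratios -0.94, -0.38 and -0.41; log2 fold change -0.57, SE 0.11, adjusted p = 0.00148). MTHFD2, which oxidises methylene-tetrahydrofolate in mitochondria, went from 42.6, 31.2 and 34.1 CPM to 31.4, 24.4 and 24.8 CPM. It fell in each pair by a similar step, though siOGT library 1 lay just above siControl library 2 (-0.42, SE 0.074, adjusted p = 5.69e-04). SHMT2, which splits serine into glycine and a one-carbon unit, differed by only -0.03 (-0.17 to 0.10) and was the most abundant of the synthesis genes per length, at 105 CPM per kb in siControl and 103 in siOGT, ahead of PHGDH (82.3 and 54.3).

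Proline, asparagine and cysteine synthesis were each represented by 1 or 2 genes. PYCR1, which makes proline, had 95.7, 95.2 and 89.1 CPM in siControl and 66.8, 75.1 and 67.8 CPM in siOGT, with no overlap (-0.42, SE 0.066, adjusted p = 2.06e-04). ALDH18A1, the enzyme at the start of that pathway, was not called (-0.13, -0.28 to 0.02). ASNS, asparagine synthetase and the textbook target of ATF4, was called lower by a narrow margin, from 21.0, 16.9 and 16.8 CPM to 15.03, 14.8 and 15.3 CPM (-0.27, SE 0.095, adjusted p = 0.0423). All siOGT libraries of ASNS were below all siControl libraries, but most of the change lay in pair 1, and without it the value was -0.17 (adjusted p = 0.407). The call of ASNS was also lost with DESeq2 (adjusted p = 0.173) and when libraries were scaled by their totals alone (adjusted p = 0.064). Of the length of ASNS, 49.3% is shared with an annotated readthrough gene on the same strand.

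CBS and CTH form the path from homocysteine to cysteine. CBS was called lower (-0.37, SE 0.092, adjusted p = 0.00649), although its siControl libraries ranged from 12.9 to 27.4 CPM and overlapped with siOGT (11.4 to 19.0 CPM), and the call was lost without pair 1 (-0.28, adjusted p = 0.134). The files hold a separate row for CBSL, an almost identical copy, so reads of both can be divided in different ways. Summed over the 2 rows and scaled by library totals alone, the log2 ratios of CPM in pairs 1 to 3 were -0.71, -0.43 and -0.47. For CBS alone they were -0.50, -0.36 and -0.15 on the same scale. CTH differed by 0.19 (-0.14 to 0.51) at 2.81 to 5.65 CPM over the 6 libraries.

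The amino acid transporters split. SLC3A2, the heavy chain (CD98) that carries several light-chain exchangers to the cell surface (chr11:62856004-62888880), had 205, 129 and 215 CPM in siControl and 401, 233 and 418 CPM in siOGT. The lowest siOGT library was above the highest siControl library, the log2 ratios of the pairs were 0.97, 0.86 and 0.96, and the log2 fold change was 0.93 (SE 0.065, adjusted p = 6.15e-08), the largest called increase among the 40 after PPP1R15A. SLC7A5 (LAT1), the leucine-importing light chain bound to SLC3A2, went the other way, from 159, 189 and 154 CPM to 124, 176 and 125 CPM. Its groups overlapped and the fall in pair 2 was small (-0.25, SE 0.068, adjusted p = 0.0115). The call of SLC7A5 was lost without pair 1 (adjusted p = 0.198), and its counts were divided between matching sequences in all 6 libraries.

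SLC7A11 (xCT), the cystine-importing light chain of SLC3A2, was not called (0.17, -0.01 to 0.36, adjusted p = 0.166), since pair 3 fell while the other pairs rose. Without pair 3 it was 0.31 (adjusted p = 0.0134). In CPM per kb, the ratio of SLC3A2 to SLC7A5 was 3.12, 1.65 and 3.37 in the siControl libraries and 7.83, 3.20 and 8.07 in the siOGT libraries, so it rose within each pair while the groups overlapped. The ratio of SLC3A2 to SLC7A11 was 27.8, 27.8 and 32.8 in siControl and 45.4, 38.82 and 69.1 in siOGT, with no overlap.

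The neutral amino acid exchangers of the SLC1 family were both lower. SLC1A4 (ASCT1), which carries serine and alanine, was at 55.3, 62.2 and 54.0 CPM in siControl and at 44.2, 48.8 and 45.7 CPM in siOGT (-0.30, SE 0.068, adjusted p = 0.00325). SLC1A5 (ASCT2), the glutamine carrier, was at 266, 268 and 256 CPM and then at 225, 224 and 197 CPM (-0.29, SE 0.065, adjusted p = 0.00312). In neither did the groups overlap. The cationic amino acid carrier SLC7A1 (-0.10, -0.24 to 0.04) and the glutamine and alanine importer SLC38A2 (-0.13, -0.27 to 0.01) were not called, with all 3 pairs below 0 in both. SLC38A2, at 139 CPM per kb in siControl, was the third most abundant member. Over the 7 transport genes 1 was called higher and 3 lower, with a median of -0.13.

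**Figure D3:**
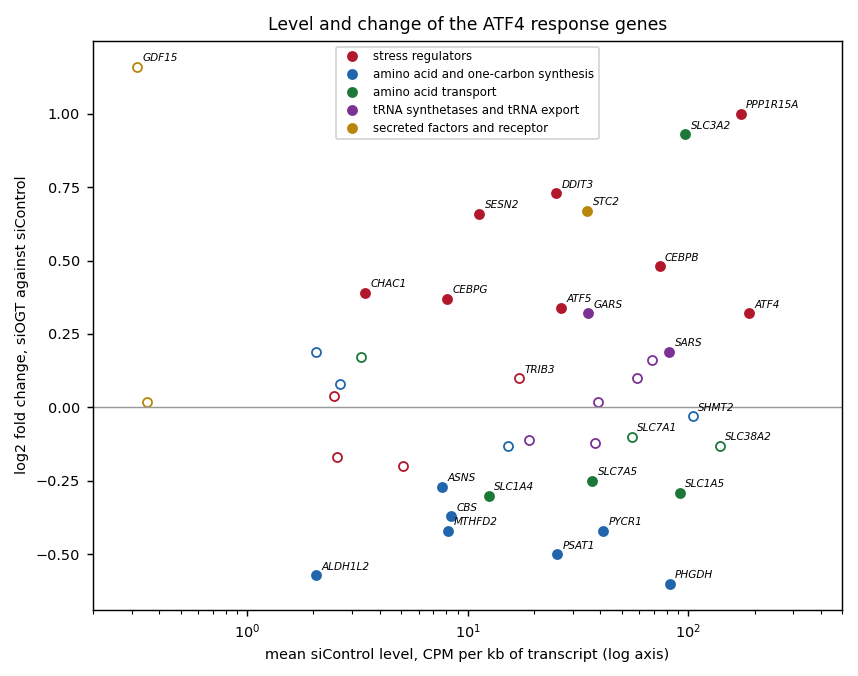
Mean siControl level in CPM per kb of transcript (log axis) against the log2 fold change for the 40 genes, coloured by role, with filled points for called genes. Genes called higher span levels from 3.44 (CHAC1) to 189 (ATF4) CPM per kb and genes called lower from 2.05 (ALDH1L2) to 91.4 (SLC1A5), and the gene with the largest estimate, GDF15, is the least abundant at 0.318 CPM per kb.

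Changes in the tRNA group were small. The enzymes that load amino acids onto tRNA, and XPOT, which exports tRNA from the nucleus, numbered 7, of which 2 were called higher and 0 lower (0 at an unadjusted p below 0.05 in the lower direction, and 0 by DESeq2), with a median log2 fold change of 0.10. GARS, the glycyl-tRNA synthetase, had 84.6, 81.4 and 90.3 CPM in siControl and 106, 103 and 111 CPM in siOGT, with pairs at 0.32, 0.34 and 0.29 and no overlap (0.32, SE 0.063, adjusted p = 0.00143). SARS, the seryl-tRNA synthetase, went from 164, 144 and 164 CPM to 178, 167 and 194 CPM, also without overlap (0.19, SE 0.064, adjusted p = 0.0366), but its call was lost when any 1 pair was left out (adjusted p 0.0732 to 0.138).

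AARS, for alanine, was just outside the threshold (0.16, 0.03 to 0.29, adjusted p = 0.0742) and, of the alternatives run, was called only when libraries were scaled by their totals alone (adjusted p = 0.0405). MARS, for methionine, was not called (0.10, -0.03 to 0.24) although its siOGT libraries lay above its siControl libraries. NARS, for asparagine, differed by 0.02 (-0.11 to 0.15), an interval that leaves out a change of the size seen for GARS. WARS, for tryptophan (-0.12, -0.27 to 0.02), and XPOT (-0.11, -0.25 to 0.04) had estimates below 0 and pairs of both signs.

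Of the 3 members that encode secreted factors or a receptor, STC2 was called higher and 0 were called lower (0 at an unadjusted p below 0.05 in the lower direction, and 0 by DESeq2), with a median of 0.67. STC2, stanniocalcin 2, a secreted glycoprotein, had 193, 93.9 and 159 CPM in siControl and 321, 160 and 225 CPM in siOGT. The libraries of the 2 groups overlapped because replicate 2 was low in both, yet the pairs rose by 0.73, 0.77 and 0.51 (log2 fold change 0.67, SE 0.069, adjusted p = 4.32e-06). GDF15, a stress cytokine, had the largest estimate of the 40 genes, 1.16, but it rested on 8, 6 and 17 counts in siControl and 23, 24 and 21 in siOGT, and its interval ran from 0.19 to 2.14 (adjusted p = 0.0747). Of the alternatives run, it was called only without replicate pair 3 (adjusted p = 0.0428). VLDLR, a lipoprotein receptor, had a log2 fold change of 0.02 (-0.43 to 0.46), with 1 pair up and 2 down.

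Other lists related to this response were counted in the same fit. A list of 18 genes held the signalling upstream of ATF4, that is eIF2, its kinases and regulators and its exchange factor eIF2B, and also QRICH1. Of these 18, 1 was called higher and 5 lower (median -0.029). The largest changes there were GCN1, the activator of GCN2 (-0.32, adjusted p = 0.003), and EIF2AK2, the kinase PKR (-0.30, adjusted p = 0.00245). Among 14 further genes reported as ATF4 targets that could be tested, of 18 listed, 4 were called higher and 1 lower (median 0.084). KDM7A, a histone demethylase, was at 0.81 (0.36 to 1.26, adjusted p = 0.0104), at means of only 1.77 CPM in siControl and 3.11 CPM in siOGT. ATF3, a stress-induced bZIP factor, was at 0.68 (adjusted p = 6.34e-05). The cytosolic synthetases that are not among the 40 showed 1 higher and 1 lower of 14 (median 0.041, FARSA 0.28 and QARS -0.27), and the mitochondrial synthetases 3 higher and 1 lower of 17 (median -0.028, PARS2 0.40).

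The cytosolic folate cycle, which shares substrates with the mitochondrial enzymes above, had 4 genes called lower and 0 higher of 9 (0 at an unadjusted p below 0.05 in the higher direction), with a median of -0.29. TYMS, thymidylate synthase, fell by 0.63 on the log2 scale (adjusted p = 5.05e-06) and SHMT1, the cytosolic counterpart of SHMT2, by 0.37 (adjusted p = 8.56e-04). Chaperone and folding genes that answer to ATF6 and XBP1, the other arms of the endoplasmic reticulum stress response, had 2 called higher and 3 lower of 16. These are 12.5% and 18.8%, beside 12.7% of all genes tested in each direction (median -0.068, SDF2L1 -0.48 and DNAJB9 0.41). HSPA5 (BiP), the usual marker of those arms, had a log2 fold change of -0.13 (adjusted p = 0.166) and was named here after its value was seen. Targets of NRF2, the antioxidant factor, had 2 higher and 1 lower of 8 (median -0.043, HMOX1 0.60 and NQO1 -0.32), and targets of p53 had 2 higher and 1 lower of 10 (median 0.078, with CDKN1A at 0.60, TIGAR at 0.41 and TP53I3 at -0.41).

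**Figure D4:**
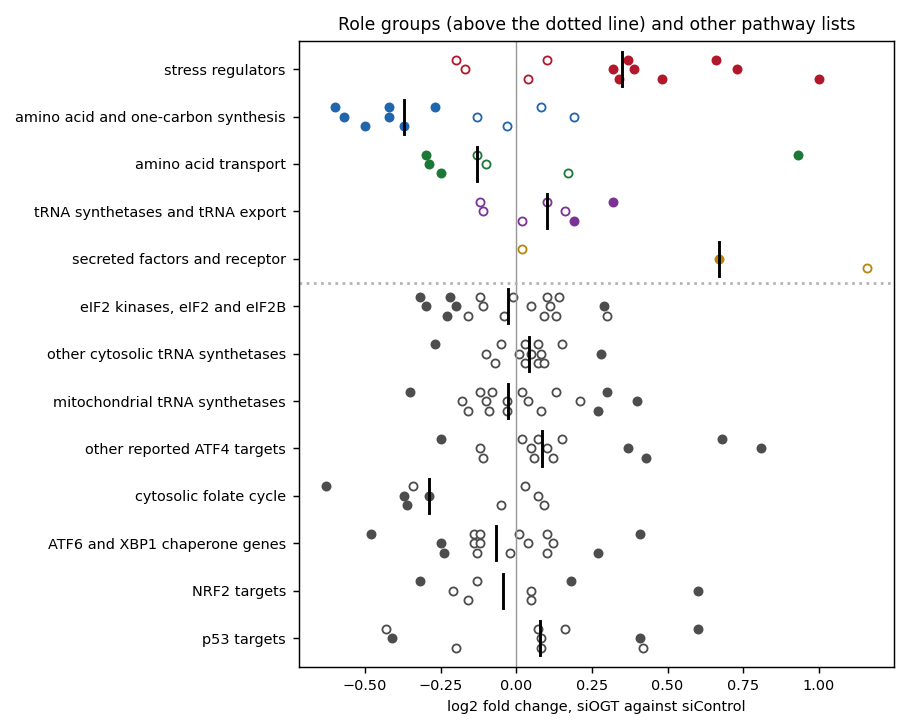
Log2 fold change of each gene tested in the 5 role groups (coloured, above the dotted line) and in 8 related lists (grey), with filled points for called genes and black bars for medians. The medians of the stress regulators (0.35) and of the synthesis genes (-0.37) lie on opposite sides of 0, and among the related lists the cytosolic folate cycle has the lowest median (-0.29).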

How the data were processed

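According to the methods of the study, polyadenylated RNA was sequenced paired-end, and reads were aligned to hg38 with Bowtie2 and counted per gene, strand by strand, with RSEM. The submitters' processing notes list Bowtie2 2.3.5.1, RSEM 1.3.1 and DESeq2 1.36.0. The files the authors deposited for each library hold expected counts, which are estimated and not normalized. The methods name a GENCODE annotation while some symbols follow RefSeq, which leaves the exact gene models open. A series table of the authors' own comparison (means, fold changes and adjusted p-values) was not used.

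After rounding of the expected counts, the 14853 of 16907 genes with a total of at least 10 entered the quasi-likelihood F test (two-sided) in edgeR 4.0.16 (R 4.3.3). Libraries were scaled by TMM (factors 0.979 to 1.02), the replicate number entered as a block, and Benjamini-Hochberg adjustment ran over all genes tested. CPM values are scaled by library total and TMM factor, except that summed marker levels and the ratios given for CBS with CBSL use library totals alone. SE and 95% confidence intervals come from the F statistic, and log2 ratios of pairs use a prior count of 2, except those given for CBS with CBSL, which use none. Levels per kb divide by the length of the canonical GENCODE 44 transcript. The methods of the study pair samples of one replicate, and the deviations of same-numbered libraries from their group means correlated by 0.69, 0.53 and 0.33 across 12373 genes, which are not independent replicates. Libraries within a group always differed by more than counting noise (chi-square per degree of freedom at least 20.3). The study describes the 3 replicates as separate experiments.

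The 40 members, the role groups and the related lists were chosen with earlier results of these data known. Library values were given for ATF4, for up to 4 called members of each role group with the largest change, and for members whose calls the text discusses, and from each related list the 2 called genes with the largest change, of which 1 is not reported here. The fits were also run on simulated data with the same dispersion for every gene, and no result above rests on that run. Alternatives were no replicate block, DESeq2 1.42.0, other scalings and filters, and leaving out each replicate pair.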

Additional observations from a re-analysis of the deposited data

How the results depend on the processing

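The replicate block moved the counts of members most. Without it edgeR called 1 member higher (SESN2) and 0 lower (11 and 7 at an unadjusted p below 0.05), against 130 of all 14853 genes. DESeq2 without it, an alternative chosen after seeing the data, called 8 higher and 5 lower, against 849 of all 14853 genes. With the block, leaving out 1 replicate pair gave 10 to 12 members higher and 7 to 10 lower. Over all genes 1803 of 14456 were then called without replicate 1, 3251 of 14479 without replicate 2 and 3439 of 14455 without replicate 3. DESeq2, 2 other scalings and 2 other filters, all with the block, gave 11 to 13 higher and 9 to 10 lower. Over all genes DESeq2 called 2415 of 14853, and the other scalings and filters called from 3692 to 4075. The median of the 40 log2 fold changes ran from -0.018 without replicate 2 to 0.058 without replicate 1, and OGT stayed between -2.25 and -2.11. Among single members, signs turned only in genes that were not called. Leaving out 1 pair moved NUPR1 between -0.09 (without replicate 2) and 0.14, SHMT2 between -0.063 and 0.012 (without replicate 1), and VLDLR between -0.26 (without replicate 2) and 0.26. VLDLR was also -0.0091 without the block and -0.013 with DESeq2 without it. The cause was not tested. The stricter promoter element TGATGCAA left 4 members with a match in place of 7. Members below about 10 CPM, such as CHAC1, CTH, DDIT4, VLDLR and GDF15, have wide intervals at this depth.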
